A study of Homo sapiens with 18 samples.

Results

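The RNAs described here are 10 noncoding transcripts of a myeloma cell line: the nuclear body RNAs MALAT1 and NEAT1, the snoRNA host genes GAS5, SNHG1, DANCR, ZFAS1 and EPB41L4A-AS1, the microRNA host genes MIR210HG and MIR17HG, and the long intergenic RNA LINC02008. They were taken by symbol from the 57351 gene symbols that both MM1S expression tables share. MALAT1, MIR210HG and LINC02008 were chosen by their measured differences between groups in these same libraries (MALAT1 opposite in the 2 MM1S comparisons, the others large), so their values are given as a description with no test. The other 7 were listed by name and were tested.

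The study examined RBM39, an RNA-binding protein of the spliceosome, in multiple myeloma, a cancer of plasma cells. Of its 18 samples, the 10 expression libraries from MM1S, a human myeloma line, were used. The 6 libraries from H929, another myeloma line, and the 2 RBM39 immunoprecipitation libraries were not analysed here for these RNAs. None of them was found there by symbol or older name. In the first comparison MM1S cells carrying a scrambled hairpin (SCR, 2 libraries) were set against cells with a hairpin to RBM39 (shRBM39, 2 libraries). In the second, MM1S cells given the solvent DMSO (3 libraries) were set against cells labelled In (3 libraries), read here as indisulam, an aryl sulfonamide that makes the DCAF15 ubiquitin ligase degrade the RBM39 protein. All groups are 1 cell line. Dose and time are not in the labels, nor is the meaning of the knockdown's numbers 1 and 2 (hairpins, cultures or repeats), so p-values measure the spread between these libraries, which may be technical.

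Long noncoding RNAs act at different steps of gene expression. MALAT1 sits in nuclear speckles, where splicing factors are stored, and NEAT1 is the scaffold on which paraspeckles assemble with proteins such as NONO and SFPQ. Host genes of small nucleolar RNAs carry these guide RNAs in their introns, and their spliced transcripts are often short-lived because translation exposes them to nonsense-mediated decay. Host genes of microRNAs carry hairpins that DROSHA cuts out of the primary transcript: MIR210HG is the host of the hypoxia-induced miR-210, and MIR17HG is the host of the miR-17-92 cluster, a target of MYC and E2F factors.

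The microRNAs that MIR210HG and MIR17HG carry are shown because they are the reason these hosts are followed. The RefSeq table (GRCh38.p14) held 7 hairpins within the hosts. The capitals mark the seed, bases 2 to 8, which pairs with target transcripts. miR-210-3p lies at chr11:568112-568133 on the minus strand, and the cluster lies on chromosome 13, plus strand. Of the 12 mature arms of the cluster, 1 is shown for each hairpin, the arm known as its main product.
miR-210-3p: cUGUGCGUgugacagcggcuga
miR-17-5p: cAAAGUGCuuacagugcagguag
miR-20a-5p: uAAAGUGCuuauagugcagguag
miR-18a-5p: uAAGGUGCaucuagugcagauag
miR-19a-3p: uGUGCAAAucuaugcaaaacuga
miR-19b-3p: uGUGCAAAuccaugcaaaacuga
miR-92a-3p: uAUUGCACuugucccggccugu
miR-17-5p and miR-20a-5p share the seed AAAGUGC, miR-19a-3p and miR-19b-3p share GUGCAAA, and miR-18a-5p and miR-92a-3p each have their own. The genes of all 7 hairpins had a row in the MM1S tables, and all were listed at 0 in all 10 libraries, so the values below are those of the host transcripts and not of the microRNAs. The libraries were made with an mRNA kit, per the labels. Of 34 small RNA genes that lie within the 10 RNAs, 20 had a row, and 19 of these were listed at 0 in every library. The exception was SNORD22 of SNHG1, which was at 0 in 6 libraries.

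The promoter of MIR210HG is shown because the host had the largest difference among the 10 RNAs with indisulam. The window holds 250 bases before and 50 after the annotated start, at chr11:568408-568707 on the minus strand, with matches to the HIF core motif ACGTG in capitals.
MIR210HG: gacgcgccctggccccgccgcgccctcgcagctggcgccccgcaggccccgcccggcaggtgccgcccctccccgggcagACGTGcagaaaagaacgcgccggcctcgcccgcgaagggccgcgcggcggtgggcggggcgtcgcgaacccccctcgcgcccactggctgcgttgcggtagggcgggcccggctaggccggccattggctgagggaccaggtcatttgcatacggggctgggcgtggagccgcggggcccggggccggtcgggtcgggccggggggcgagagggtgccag
ACGTG occurred once, 170 bases before the start, on the gene's own strand, and no CACGTG was present. ACGTG on either strand was found in 21.4% of 35116 RefSeq promoters of this length, and among the 8 RNAs with an entry it was also found in EPB41L4A-AS1. A match of these letters is a description and not a binding site.

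The starts of GAS5, ZFAS1 and SNHG1 are shown because these 3 snoRNA hosts rose with indisulam. Host transcripts of this class are known for a terminal oligopyrimidine tract, a stretch of C and T at their very first bases. Each window holds 20 bases before and 50 after the RefSeq start, with the longest run of C and T in capitals.
GAS5 (chr1:173868996-173869065, minus strand): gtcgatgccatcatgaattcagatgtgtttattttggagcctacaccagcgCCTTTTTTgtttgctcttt
ZFAS1 (chr20:49278622-49278691, plus strand): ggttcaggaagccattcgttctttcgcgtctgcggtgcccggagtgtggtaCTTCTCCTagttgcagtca
SNHG1 (chr11:62855836-62855905, minus strand): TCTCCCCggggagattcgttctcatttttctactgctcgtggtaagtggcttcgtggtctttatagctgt
The run was 8 bases long in GAS5 and in ZFAS1, beginning at base 32 of the annotated transcript in both, and 7 bases long in SNHG1, beginning 20 bases before the start. None of these 3 longest runs lay at the annotated start. Shorter runs were not searched for, so the marked runs do not show whether a terminal tract is present. As printed, the annotated transcript of ZFAS1 begins with CTTTC and that of SNHG1 with CTC, while that of GAS5 begins with A. A run of 8 or more was present in 2 of the 5 snoRNA hosts described here, in 10 of 27 snoRNA host genes with an entry, and in 26.0% of all promoters.

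All values are TPM, a share of the library's transcripts corrected for length, so levels can be compared between genes within a table. The 2 tables were normalized separately and were not tested against each other, and the read depth is unknown. Fold changes are differences of log2(TPM + 1), tested with limma over all genes, and a gene was called when its adjusted p was below 0.05. RBM39 RNA, the check of the knockdown, was 176.28 and 204.58 TPM in SCR and 64.8 and 52.23 TPM in shRBM39. It fell by 1.69 ± 0.16 (SE) on the log2 scale (limma adjusted p = 0.0119). With indisulam it was 178.27 to 195.97 TPM in DMSO and 149.42 to 226.5 TPM in treated cells (log2 difference 0.05, limma adjusted p = 0.828); since the compound acts on the protein, its RNA is no check of that label. All 9 plasma cell markers looked at were above 1 TPM in at least 1 knockdown-table library, and FCRL5 stayed below 1 TPM in the indisulam table. With knockdown 1 of 9 rose (SLAMF7, 129 to 191 TPM, limma adjusted p = 0.0426) and 1 fell (FCRL5, 3.10 to 0.385 TPM, past the filter only through SCR). Over all genes, 4.03% were called higher and 6.38% lower. With indisulam 1 of 8 rose and 3 fell (MZB1, CD38 and TNFRSF17), against 8.47% and 21.5% of all genes. Without replicate 3 of the indisulam group, described next, 4 rose and 3 fell, against 37.9% and 27.9% of all genes. The call on TNFRSF17 was lost under quantile normalization, under median scaling, and without DMSO replicate 2 or 3. That on MZB1 was lost under median scaling. CD38 was below 1 TPM in 1 of 3 treated libraries and passed the filter only through DMSO. The riser was XBP1 (534 to 649 TPM, limma adjusted p = 0.0252). Its call was lost without any 1 library other than indisulam replicate 3. It was also lost under median scaling, with the replicate block and without limma's trend and robust options. The part of these changes in the results was not tested. Among 12 markers of other cell types, 7 and 8 stayed below 1 TPM. Higher ones, in the knockdown and the indisulam table, were HBB (5.78 to 15.41 and 25.9 to 40.99 TPM), PECAM1 (11.81 to 23.18 and 3.35 to 8.99 TPM) and CD68 (5.42 to 20.53 and 6.9 to 10.52 TPM). Of 5 tested with knockdown and 4 with indisulam, 2 had a positive difference in each comparison. In each, 1 was called, lower, against 6.38% and 21.5% of all genes. The T cell gene CD3E fell in both comparisons, from 5.00 to 0.915 TPM with knockdown and from 3.35 to 1.18 TPM with indisulam, as group means. It was below 1 TPM in 1 of 2 shRBM39 and 1 of 3 indisulam libraries. CD3E passed the filter only through the control groups, so its p is not given, and its part in the results was not tested. In bulk RNA, fewer cells with a transcript and less of it per cell cannot be told apart.

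Indisulam replicate 3 stood apart from the other 2 treated libraries. With all 6 libraries 4019 of 13421 genes were called, and 28.3% of these were higher, whereas without it 9343 of 14207 were called and 57.6% were higher. The share of higher calls also moved with scaling, to 52.1% under quantile normalization and 46.7% under median scaling. The differences of the 10 RNAs and the counts of the gene lists are therefore given with and without this library. The cause of its difference was not tested.

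The 10 RNAs covered a wide range of levels. In SCR cells GAS5 was highest (mean 608.8 TPM), followed by NEAT1 (471), SNHG1 (346), MALAT1 (339), DANCR (138), ZFAS1 (87.0), MIR210HG (30.6), EPB41L4A-AS1 (23.7), LINC02008 (7.79) and MIR17HG (2.60). The ranges of SNHG1 and MALAT1 overlapped, as did those of MIR210HG and EPB41L4A-AS1. In DMSO cells NEAT1 was highest (1001 TPM), followed by GAS5 (536), MALAT1 (464), SNHG1 (203), DANCR (154), MIR210HG (131), ZFAS1 (72.0), EPB41L4A-AS1 (26.0) and MIR17HG (3.31), with LINC02008 at 0 in 2 of 3 libraries. MIR210HG, NEAT1, MALAT1 and DANCR thus stood higher in all DMSO libraries than in both SCR libraries. GAS5, SNHG1, ZFAS1 and LINC02008 stood lower. These are differences between separately normalized tables and were not tested.

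**Figure D1:**
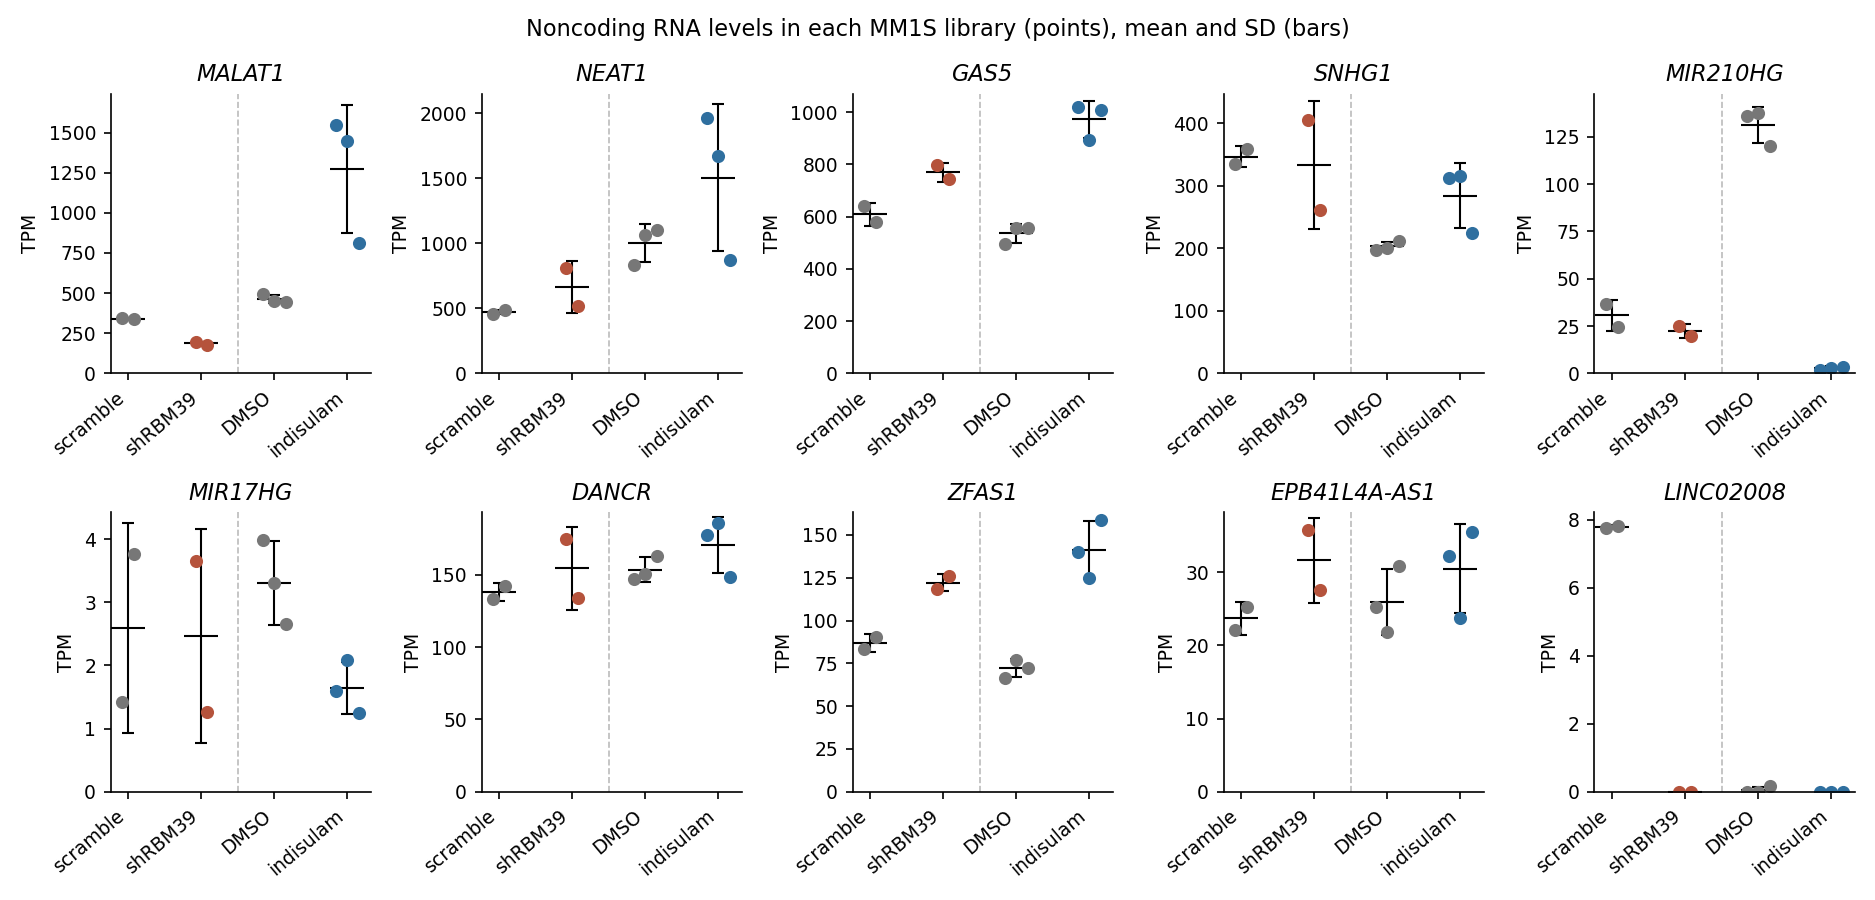
TPM of each of the 10 RNAs in each MM1S library (points), with the group mean and SD (bars); the dashed line separates the 2 tables, which were normalized separately. MALAT1 is lower in both shRBM39 libraries and higher in all indisulam libraries, MIR210HG is at 3.42 TPM or less with indisulam, and LINC02008 is present in the 2 SCR libraries.

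With knockdown of RBM39, 0 of the 7 tested RNAs were called by limma, against 10.4% of all genes tested (4.03% higher). At an unadjusted p below 0.05 there were 2, and limma without its trend and robust options also called 0. All 10 RNAs passed the filter on low values. The groups did not overlap for 4 of the 7, against 62.4% of all genes, and the 4 were NEAT1, GAS5, ZFAS1 and EPB41L4A-AS1. In simulated data with 200 changed genes and these library numbers, 0% of genes changed by 1 on the log2 scale and 21% of those changed by 2 were called. The adjustment of p depends on how many genes change, and the real fit called 1470 of 14122 genes. These shares therefore do not measure what the real fit could call. Without SCR replicate 1, SCR replicate 2 or shRBM39 replicate 2, limma called 0 genes in the whole table, so each knockdown call given here, RBM39 included, was lost without any of these 3 libraries. Without shRBM39 replicate 1 the calls on TAF15, NUDT21, HNRNPA1, METTL3, HNRNPC, MIR155HG, CD3E, SLAMF7 and FCRL5 were lost too. With indisulam 9 of the 10 passed the filter and 4 of the 7 were called, against 29.9% of all genes. GAS5, ZFAS1 and SNHG1 rose, against 8.47% of all genes called higher, and MIR17HG fell, against 21.5% called lower. These 4 were also the ones among the 7 whose groups did not overlap, against 47.3% of all genes. Without replicate 3, 6 of the 7 were called, 5 of them higher, against 65.8% of all genes called, 37.9% higher and 27.9% lower.

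**Figure D2:**
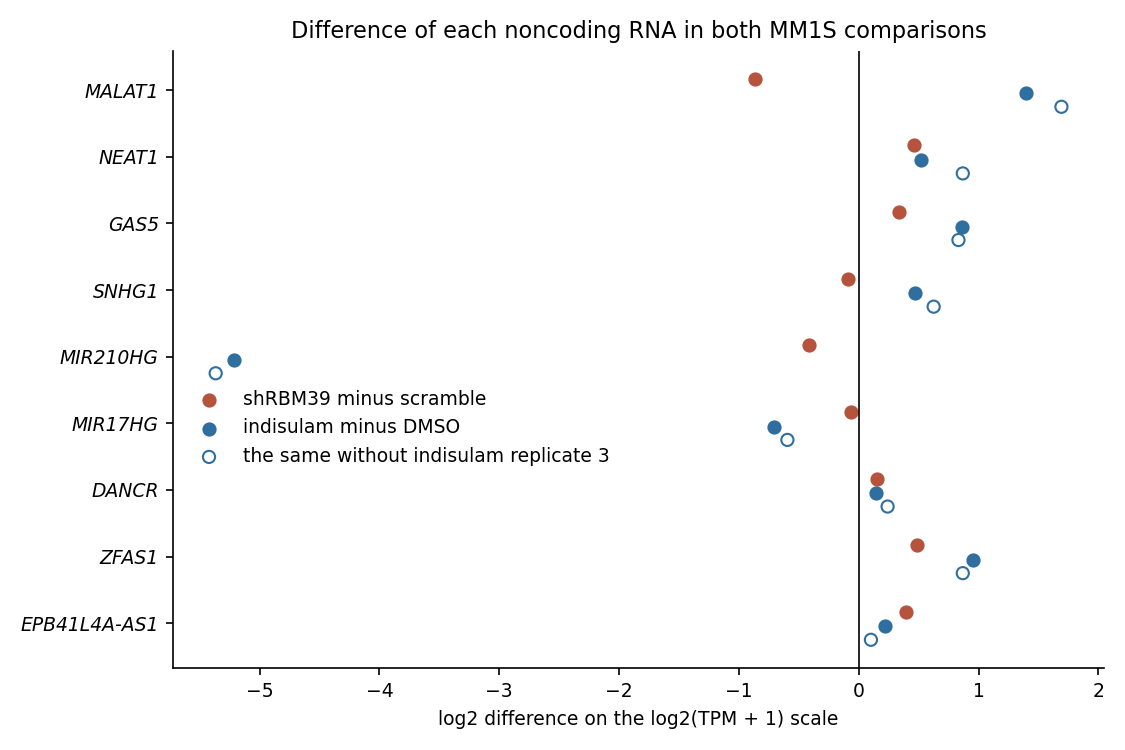
Difference of 9 of the RNAs on the log2(TPM + 1) scale, shRBM39 minus SCR (red) and indisulam minus DMSO with all libraries (blue) and without indisulam replicate 3 (open); LINC02008, listed at 0 in both shRBM39 libraries, is not drawn. MALAT1 lies at -0.86 and 1.40, and MIR210HG at -0.42 and -5.21.

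MALAT1, the nuclear speckle RNA, was 342.16 and 336.73 TPM in SCR and 194.41 and 178.46 TPM in shRBM39. Both knockdown libraries lay below both controls, with means of 339 ± 3.84 and 186 ± 11.3 TPM (SD, n = 2 each) and a log2 difference of -0.86. In the other table it was 494.28, 449.09 and 447.29 TPM in DMSO and 1550.46, 1446.89 and 813.73 TPM in treated cells. All 3 treated libraries lay above all 3 controls, and replicate 3 was the lowest of them. The log2 difference was 1.40, and 1.69 without replicate 3. MALAT1 was picked for this opposite pattern, so no test is given. Its partly overlapping antisense transcript TALAM1 was not analysed here.

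NEAT1, the paraspeckle RNA, was 459.33 and 483.6 TPM in SCR and 807.46 and 520.17 TPM in shRBM39. These values are for the whole gene in libraries made with an mRNA kit, so the isoforms of NEAT1 were not told apart. Both knockdown libraries lay above the controls, and they differed from each other by more than the controls did. The log2 difference was 0.46 ± 0.22 (SE) and did not pass the test (limma adjusted p = 0.216); it was 0.14 without shRBM39 replicate 1 and 0.78 without shRBM39 replicate 2. With indisulam NEAT1 was 831.61, 1067.54 and 1105.24 TPM in DMSO and 1966.73, 1674.73 and 871.83 TPM in treated cells. Replicate 3 lay within the DMSO range, so the groups overlapped. The log2 difference of 0.52 ± 0.29 (SE) did not pass the test (limma adjusted p = 0.221), while without replicate 3 it was 0.87 and NEAT1 was called (limma adjusted p = 0.00239). Without indisulam replicate 1 it was 0.28 (limma adjusted p = 0.52).

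The level of MALAT1 relative to NEAT1 was 0.745 and 0.696 in SCR and 0.241 and 0.343 in shRBM39. In the other table it was 0.594, 0.421 and 0.405 in DMSO and 0.788, 0.864 and 0.933 in treated cells. This ratio, taken within each library, was lower in both knockdown libraries and higher in all 3 treated ones, replicate 3 included. It contains MALAT1 and is therefore a description as well. Both levels are whole-gene values from libraries made with an mRNA kit, so the ratio is not one of isoforms.

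Of 14 genes for paraspeckle proteins, 4 fell with knockdown (the lower calls over all genes were 6.38%) and 0 rose. DAZAP1 fell from 106 to 57.4 TPM (limma adjusted p = 0.0339), TAF15 from 246 to 160 TPM (limma adjusted p = 0.0344) and NUDT21, a cleavage factor subunit that acts in NEAT1 3′ end formation, from 52.0 to 30.9 TPM (limma adjusted p = 0.048). The fourth was HNRNPA1. Without the trend and robust options 0 of the 14 were called, under quantile normalization 1 and under median scaling 2. The median difference was -0.37, against -0.000535 over all genes. With indisulam 9 of the 14 fell and 0 rose, against 21.5% and 8.47% of all genes. The median was -0.73, against -0.05 over all genes. HNRNPA1, a splicing regulator, fell from 1203 to 571 TPM (limma adjusted p = 0.000202), DAZAP1 from 128 to 56.0 TPM (limma adjusted p = 0.000282) and TAF15 from 247 to 111 TPM (limma adjusted p = 0.000328). SFPQ, which binds NEAT1, fell too, and NONO had a log2 difference of -0.31 that did not pass the test. Without replicate 3, 10 fell and 1 rose, against 27.9% and 37.9% of all genes. Without any 1 DMSO library 6 fell and 0 rose, while 13.1% to 14.4% of all genes were called in either direction.

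Among 15 genes for nuclear speckle proteins and partners of MALAT1, knockdown raised METTL3, the catalytic subunit of the m6A writer, from 31.1 to 58.3 TPM (limma adjusted p = 0.0304). It lowered HNRNPC, a reader of m6A-dependent structure in MALAT1, from 444 to 264 TPM (limma adjusted p = 0.0344). Neither was called without the trend and robust options. Over all genes, 4.03% were called higher and 6.38% lower with knockdown. With indisulam 0 of the 15 rose and 6 fell, against 8.47% and 21.5% of all genes. The falls were led by the splicing factors U2AF1 (136 to 51.7 TPM, limma adjusted p = 0.000181), SRRM2 (455 to 312 TPM, limma adjusted p = 0.00443) and SRSF3 (231 to 118 TPM, limma adjusted p = 0.00676). The call on SRRM2 was lost under quantile normalization. Without replicate 3, 5 of the 15 rose and 7 fell, against 37.9% and 27.9% of all genes.

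GAS5, a snoRNA host whose spliced RNA is a known target of nonsense-mediated decay, was 639.26 and 578.37 TPM in SCR and 795.94 and 744.29 TPM in shRBM39. Both knockdown libraries lay above both controls, and the log2 difference of 0.34 ± 0.11 (SE) did not pass the test (limma adjusted p = 0.105). It did under quantile normalization (0.53, limma adjusted p = 0.0375). With indisulam GAS5 was 494.53, 557.61 and 554.69 TPM in DMSO and 1018.43, 891.51 and 1009.11 TPM in treated cells. All 3 treated libraries lay well above the controls, the means being 536 ± 35.6 and 973 ± 70.7 TPM (SD, n = 3 each). The log2 difference was 0.86 ± 0.09 (SE; limma adjusted p = 0.000787), and 0.83 without replicate 3. GAS5-AS1 and ZBTB37, which overlap GAS5, were at 1.70 TPM or less and 3.02 TPM or less in all libraries. The strand setting of the counting is not given in the sources used here.

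ZFAS1, host of the SNORD12 family, was 83.33 and 90.61 TPM in SCR and 118.63 and 125.72 TPM in shRBM39. The groups did not overlap, and the log2 difference of 0.49 ± 0.12 (SE) was the nearest to the threshold among the tested RNAs (limma adjusted p = 0.0642). In the indisulam table it was 66.67, 77.09 and 72.34 TPM in DMSO and 139.89, 124.69 and 158.78 TPM in treated cells. All treated libraries lay above all controls, replicate 3 the highest. The log2 difference was 0.96 ± 0.11 (SE; limma adjusted p = 0.00132), and 0.87 without replicate 3.

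SNHG1 was 334.81 and 357.97 TPM in SCR and 405.53 and 260.9 TPM in shRBM39, so the knockdown libraries lay on either side of the controls (log2 difference -0.09 ± 0.22 SE, limma adjusted p = 0.818). The sign of that difference turned under quantile normalization. With indisulam SNHG1 was 197.1, 201.13 and 211.38 TPM in DMSO and 312.92, 314.76 and 224.92 TPM in treated cells. Replicate 3 was the lowest treated library and still lay above the controls. The log2 difference was 0.47 ± 0.14 (SE; limma adjusted p = 0.0415), and 0.63 without replicate 3. The call was lost without the trend and robust options (limma adjusted p = 0.0784), with no filter on low values (0.104), with the replicate block (0.0508) and without any of DMSO replicates 1 to 3 or indisulam replicates 1 and 2 (0.110 to 0.135).

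DANCR, the host of SNORA26, was 133.4 and 142.31 TPM in SCR and 174.59 and 133.97 TPM in shRBM39 (log2 difference 0.15 ± 0.16 SE, limma adjusted p = 0.573), and the difference was -0.04 without shRBM39 replicate 1. The second knockdown library lay within the control range. With indisulam DANCR was 146.92, 150.64 and 163.11 TPM in DMSO and 177.07, 185.93 and 148.45 TPM in treated cells, where replicate 3 again lay within the control range. The log2 difference of 0.14 ± 0.11 (SE) did not pass the test (limma adjusted p = 0.335), while without replicate 3 it was 0.24 and passed (limma adjusted p = 0.0123). Without indisulam replicate 2 it was 0.08 (limma adjusted p = 0.649). DANCR also passed under quantile normalization (0.48, limma adjusted p = 0.00378).

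EPB41L4A-AS1, the host of SNORA13, was 22.12 and 25.29 TPM in SCR and 35.74 and 27.54 TPM in shRBM39. The groups did not overlap, and the difference of 0.39 ± 0.18 (SE) did not pass the test (limma adjusted p = 0.197); it was 0.21 without shRBM39 replicate 1. With indisulam the levels were 25.27, 21.82 and 30.81 TPM in DMSO and 32.22, 23.74 and 35.56 TPM in treated cells. The groups overlapped, and the difference was 0.22 ± 0.19 (SE; limma adjusted p = 0.422). It was 0.10 without indisulam replicate 3 and without DMSO replicate 2, 0.34 without DMSO replicate 3 and 0.38 without indisulam replicate 2, none of them past the threshold. The gene EPB41L4A, which it overlaps, was at 2.12 TPM or less in all libraries.

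A list of snoRNA host genes included these 5 and the protein-coding hosts TMEM107 and CWF19L1. With knockdown 1 of 29 rose and 0 fell, against 4.03% and 6.38% of all genes. That gene was SNHG19, which rose from 76.0 ± 2.32 to 250 ± 41.3 TPM (SD, n = 2 each; log2 difference 1.69, limma adjusted p = 0.0119). The median difference was 0.29, against -0.000535 over all genes. The count was 5 under quantile normalization and 3 under median scaling. With indisulam 8 of 29 rose and 4 fell, against 8.47% and 21.5% of all genes. The median was 0.22, against -0.05 over all genes. SNHG19 rose again, from 200 ± 31.1 to 507 ± 38.9 TPM (SD, n = 3 each; limma adjusted p = 0.000595), and so did SNHG8 and SNHG29. TMEM107 fell from 44.1 to 24.0 TPM (limma adjusted p = 0.00611), SNHG5 from 1133 to 777 TPM (limma adjusted p = 0.0205) and SNHG12 from 96.0 to 56.8 TPM (limma adjusted p = 0.0393). The calls on SNHG5 and SNHG12 were lost without any 1 DMSO library or indisulam replicate 1 and with no filter on low values, and those on SNHG5, SNHG8 and SNHG29 under median scaling. Without replicate 3, 14 rose and 7 fell, against 37.9% and 27.9% of all genes. Without any 1 DMSO library 5 rose and 1 fell, while 13.1% to 14.4% of all genes were called in either direction.

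**Figure D3:**
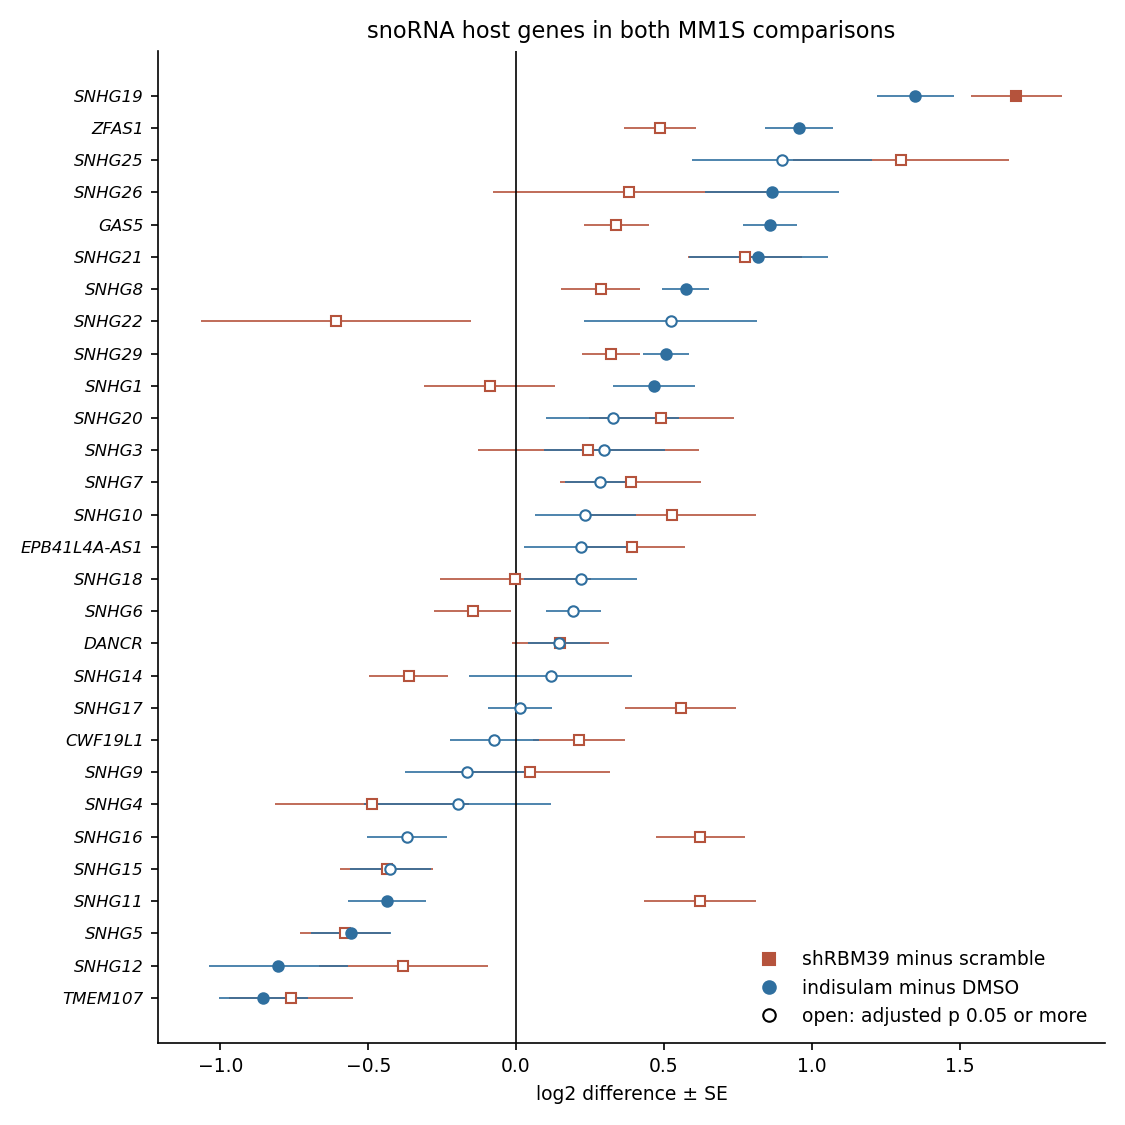
Log2 difference ± SE of 29 snoRNA host genes, shRBM39 minus SCR (squares) and indisulam minus DMSO (circles); filled symbols passed the test. SNHG19 is filled in both comparisons, and ZFAS1 and GAS5 are filled with indisulam.

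The genes that act on such transcripts were looked at beside them. Of 16 factors of nonsense-mediated decay, limma called 0 with knockdown, against 10.4% of all genes, with 2 at an unadjusted p below 0.05. With indisulam 1 of the 16 rose and 3 fell, against 8.47% and 21.5% of all genes. CASC3 rose from 23.7 to 40.8 TPM (limma adjusted p = 0.0457). The 3 that fell were other parts of the exon junction complex: EIF4A3 from 63.9 to 27.0 TPM (limma adjusted p = 0.000396), MAGOH from 89.4 to 54.8 TPM (limma adjusted p = 0.00182) and RBM8A from 180 to 110 TPM (limma adjusted p = 0.00258). The call on CASC3 was lost with no filter on low values, without the trend and robust options, and without any 1 DMSO library or indisulam replicate 1 or 2 (limma adjusted p = 0.0577 to 0.14). Of 16 genes for snoRNP proteins, 1 fell with knockdown, against 6.38% of all genes. This was the assembly ATPase RUVBL2 (94.3 to 50.8 TPM, limma adjusted p = 0.0449), a call that was lost without the trend and robust options. With indisulam 7 of the 16 fell and 0 rose, against 21.5% and 8.47% of all genes. The falls were led by RUVBL2 (105 to 37.1 TPM, limma adjusted p = 0.000151), the box C/D core protein NOP56 (251 to 124 TPM, limma adjusted p = 0.000595) and the box H/ACA protein GAR1 (31.4 to 14.0 TPM, limma adjusted p = 0.000827). Without replicate 3, 9 of the decay factors rose and 3 fell, and 4 of the snoRNP genes rose and 9 fell. Over all genes 37.9% were then called higher and 27.9% lower.

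MIR210HG was 36.56 and 24.71 TPM in SCR and 24.95 and 19.93 TPM in shRBM39. The knockdown libraries overlapped the controls, with a log2 difference of -0.42, which was -0.14 without SCR replicate 1 and -0.69 without SCR replicate 2. With indisulam it was 136.01, 137.75 and 120.09 TPM in DMSO and 1.53, 3.05 and 3.42 TPM in treated cells. All treated libraries lay far below all controls, with means of 131 ± 9.73 and 2.67 ± 1.00 TPM (SD, n = 3 each), 49.2-fold lower by the means. The log2 difference was -5.21, and -5.37 without replicate 3. MIR210HG was picked for this change, so no test is given.

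Genes that the hypoxia-inducible factor HIF induces, as it does MIR210HG, were a separate list. With knockdown limma called 0 of 19, against 10.4% of all genes, with 6 at an unadjusted p below 0.05. Limma without trend and robust options called 1 lower, and 2 were higher under quantile normalization or median scaling. The median was 0.01. With indisulam 9 of 18 fell and 0 rose, against 21.5% and 8.47% of all genes. The median was -0.64, against -0.05 over all genes. ADM, the peptide hormone adrenomedullin, fell from 279 to 82.9 TPM (limma adjusted p = 0.000139), ANKRD37 from 98.1 to 36.5 TPM (limma adjusted p = 0.000202), and SLC2A1, the glucose transporter GLUT1, from 13.7 to 5.05 TPM (limma adjusted p = 0.00141). PFKFB4, a glycolytic regulator also among the 9, went from 9.13 to 0.657 TPM; it was below 1 TPM in all treated libraries and passed the filter only through DMSO, so its p is not given. HIF1A itself had a log2 difference of -0.07 and did not pass the test. Without replicate 3, 10 fell and 2 rose, against 27.9% and 37.9% of all genes. Without any 1 DMSO library 6 fell and 0 rose, while 13.1% to 14.4% of all genes were called in either direction.

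**Figure D4:**
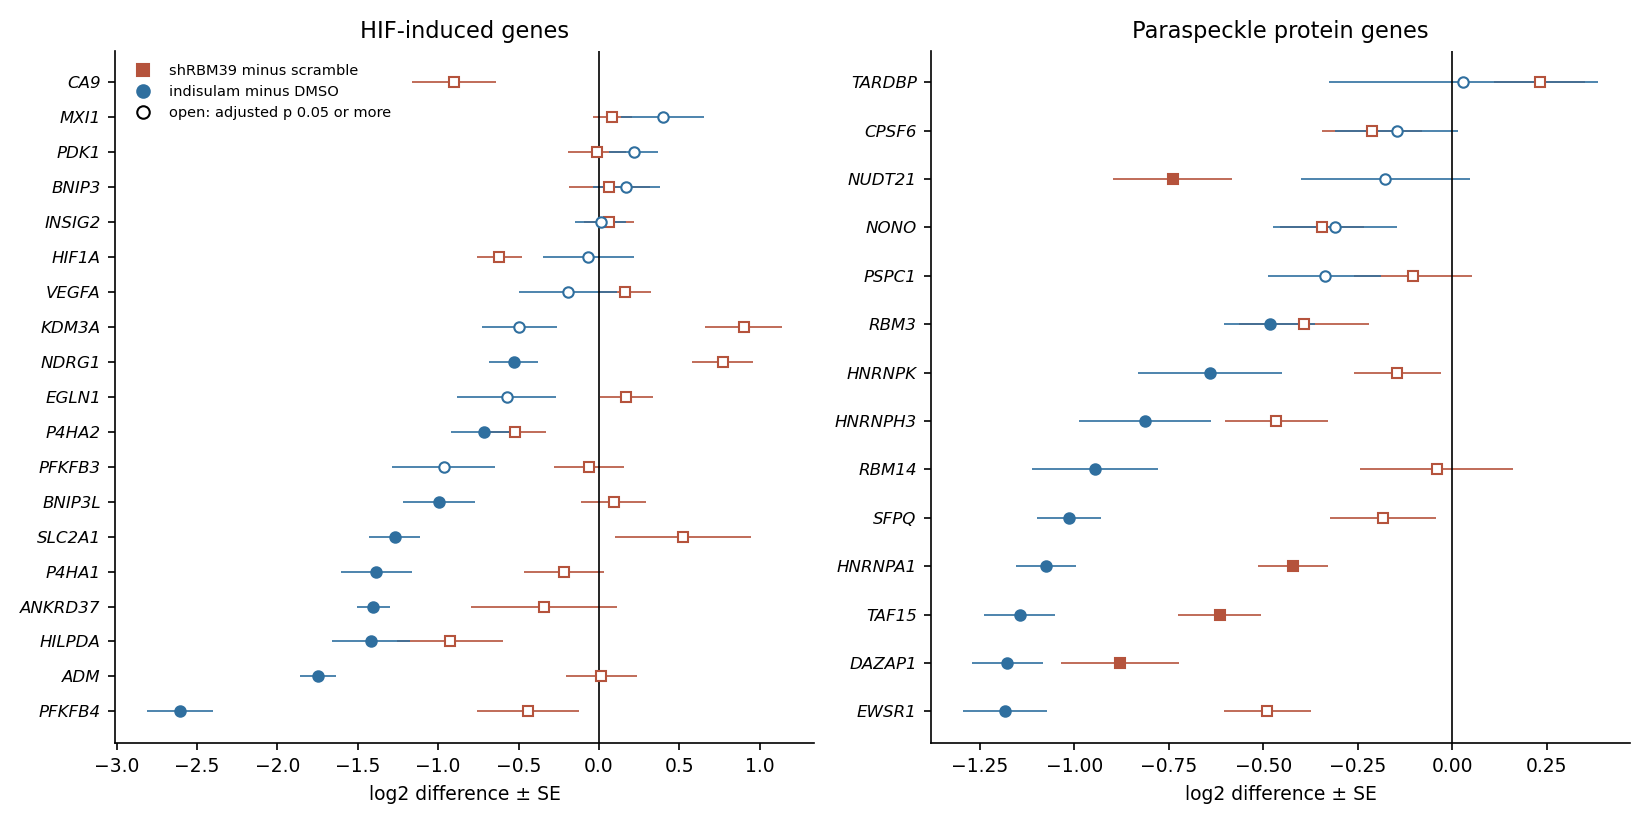
Log2 difference ± SE of HIF-induced genes (left) and genes for paraspeckle proteins (right), shRBM39 minus SCR (squares) and indisulam minus DMSO (circles); filled symbols passed the test. With indisulam 9 HIF-induced genes and 9 paraspeckle genes are filled, all below 0.

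Of 8 tested genes listed as targets of miR-210, ISCU, an iron-sulfur cluster scaffold, rose in both comparisons. It went from 192 ± 3.21 to 367 ± 34.1 TPM with knockdown (SD, n = 2 each; limma adjusted p = 0.0202) and from 204 ± 6.22 to 320 ± 15.9 TPM with indisulam (SD, n = 3 each; limma adjusted p = 0.00115). EFNA3, an ephrin, fell with indisulam from 5.62 to 0.967 TPM. With 2 of 3 treated libraries below 1 TPM, it passed the filter only through DMSO, so its p is not given. No other gene of this list was called. Over all genes 4.03% were called higher with knockdown, and 8.47% higher and 21.5% lower with indisulam. Without replicate 3, 4 of the 8 rose and 2 fell, against 37.9% and 27.9% of all genes.

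MIR17HG was low throughout. It was 1.42 and 3.77 TPM in SCR and 3.66 and 1.27 TPM in shRBM39, with no separation of the groups (log2 difference -0.06 ± 0.48 SE, limma adjusted p = 0.946). In the indisulam table it was 3.98, 3.30 and 2.65 TPM in DMSO and 1.60, 2.08 and 1.25 TPM in treated cells. All treated libraries lay below all controls, and the log2 difference of -0.71 ± 0.20 (SE) passed the test (limma adjusted p = 0.0356); it was -0.60 without replicate 3 and still passed. The call was lost with no filter on low values (limma adjusted p = 0.081), with the replicate block (0.0587) and without any of DMSO replicates 1 to 3 or indisulam replicate 1 (0.0737 to 0.145), and a filter at 5 TPM removed the gene.

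Regulators and targets of the cluster moved as follows. E2F2, which both induces the cluster and is listed among its targets, fell with knockdown from 29.1 to 10.4 TPM (limma adjusted p = 0.0473). It was the 1 of 15 genes called, against 10.4% of all genes, and the call was lost without the trend and robust options. With indisulam 2 of 16 rose and 4 fell, against 8.47% and 21.5% of all genes. E2F2 fell from 31.4 to 4.46 TPM (limma adjusted p = 0.000355), E2F1 from 35.3 to 7.60 TPM (limma adjusted p = 0.00143) and MYC from 163 to 99.6 TPM (limma adjusted p = 0.00413), with MYCN as the fourth. MYCN was below 1 TPM in 2 of 3 treated libraries and passed the filter only through DMSO, so its p is not given. The count of 4 includes it. BCL2L11, which encodes the death protein BIM, rose from 25.7 to 52.2 TPM (limma adjusted p = 0.0202), and the cell cycle inhibitor CDKN1A rose from 13.8 to 23.7 TPM (limma adjusted p = 0.0351). The calls on BCL2L11, CDKN1A and MYCN were lost with no filter on low values and without any 1 DMSO library or indisulam replicate 1 or 2. The limma adjusted p then reached up to 0.0848 for BCL2L11 and 0.13 for CDKN1A. The call on CDKN1A was also lost with the replicate block, and that on MYCN under median scaling. Without replicate 3, 10 rose and 4 fell, against 37.9% and 27.9% of all genes.

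Other microRNA hosts were counted without MIR210HG. With knockdown 1 of 12 fell and 0 rose, against 6.38% and 4.03% of all genes: MIR155HG, the host of miR-155, fell from 5.24 to 2.04 TPM (limma adjusted p = 0.0418). With indisulam 2 of 9 rose and 3 fell, MIR17HG among the latter, against 8.47% and 21.5% of all genes. These counts include MIR34AHG and MIR503HG, whose calls depend on the filter as described below. MIR4435-2HG fell from 176 to 66.3 TPM (limma adjusted p = 0.000507), and MIR600HG rose from 5.88 to 16.9 TPM (limma adjusted p = 0.00509). The remaining calls were MIR503HG (5.43 to 0.473 TPM) and MIR34AHG, the host of miR-34a (0.680 to 4.25 TPM). Each was below 1 TPM in all 3 libraries of its lower group and passed the filter only through the other group, so it could pass only by differing and its p is not given. Without replicate 3, 5 of 13 rose and 4 fell, against 37.9% and 27.9% of all genes. MIR4435-2HG has a near-identical copy in CYTOR, so the level of each is uncertain. Of 16 microRNA processing factors, 1 fell with knockdown, against 6.38% of all genes. This was DROSHA, from 36.6 to 18.1 TPM (limma adjusted p = 0.0349), a call that was lost without the trend and robust options. With indisulam 3 fell and 0 rose, against 21.5% and 8.47% of all genes. The transport GTPase RAN fell from 349 to 158 TPM (limma adjusted p = 0.000624) and DROSHA from 34.8 to 19.3 TPM (limma adjusted p = 0.00441). TARBP2, a DICER1 partner, fell from 36.7 to 26.7 TPM (limma adjusted p = 0.0272). The call on TARBP2 was lost with no filter on low values, with the replicate block, and without any 1 DMSO library or indisulam replicate 2. Without replicate 3, 6 of the 16 rose and 5 fell, against 37.9% and 27.9% of all genes.

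LINC02008 was 7.76 and 7.82 TPM in SCR and was listed at 0 in both shRBM39 libraries. In the other table it was listed at 0 in 2 DMSO libraries and in all 3 indisulam libraries, and at 0.16 TPM in the third DMSO library. It was picked for this change, and no fold is given against values listed at 0. The SCR libraries thus differed from the DMSO libraries of the same line as well as from the knockdown libraries.

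Across 17 other long noncoding RNAs, 1 fell with knockdown and 0 rose, against 6.38% and 4.03% of all genes. With indisulam 1 rose and 2 fell, against 8.47% and 21.5% of all genes. CYTOR fell in both, from 74.6 to 41.0 TPM (limma adjusted p = 0.0242) and from 74.3 to 21.3 TPM (limma adjusted p = 0.000307). LINC-PINT, a p53-induced RNA, rose with indisulam from 7.39 to 23.7 TPM (limma adjusted p = 0.00569), and JPX fell from 16.0 to 11.1 TPM (limma adjusted p = 0.0421), a call that was lost with the replicate block and without any 1 library other than indisulam replicate 3. Without replicate 3, 9 rose and 2 fell, against 37.9% and 27.9% of all genes. Over all genes of RefSeq biotype lncRNA, 31 of 532 rose and 17 fell with knockdown (median 0.24), and 96 of 500 rose and 73 fell with indisulam (median 0.11). For protein-coding genes the counts were 396 up and 805 down of 10952 with knockdown and 638 up and 2487 down of 10493 with indisulam.

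The genes whose pattern over the 10 MM1S libraries was most like that of MALAT1 were CLCN5 (Pearson r = 0.991), ITPKB (0.989) and MERTK (0.988), among 11091 genes. CLCN5, a chloride-proton exchanger, had means of 2.75 and 1.46 TPM in SCR and shRBM39 and 0.920 and 3.23 TPM in DMSO and indisulam. Its DMSO mean was below the filter of 1 TPM, so CLCN5 could not have passed there through DMSO alone. MALAT1 and NEAT1 were less alike (r = 0.399). The genes most like NEAT1 were WDR45 (0.976), CEPT1 (0.969) and YTHDF2 (0.968), and those most like MIR210HG were NQO1 (0.997), PSMB9 (0.995) and COMMD4 (0.994). Each value was taken relative to the mean of its table's controls, and libraries of a table share normalization, so these correlations are a description with no test.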

How the data were processed

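Expression of 10 noncoding RNAs was read from MM1S RNA sequencing libraries: 2 SCR and 2 shRBM39 in one table, 3 DMSO and 3 indisulam in another. The authors deposited both tables under the name FPKM, but the columns of both deposited tables sum to the same total, 1000000, so the values are TPM; the planned test, written for FPKM, was run on TPM. Per the labels' protocols, TRIzol was used for RNA and a SMARTER mRNA kit for the libraries. The submitters' processing notes name mouse builds (GRCm38, mm10) for human symbols, so coordinates printed here are those of RefSeq GRCh38.p14 sequences only. No aligner, counting tool or strand setting is given in the sources used here. Depth is unknown, so no counting interval is given.

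Columns were matched to samples by their numbers in the labels, and 0 columns were left unmatched. Rows without a name (0.436% to 0.459% of TPM in the knockdown table and 0.174% to 0.237% in the indisulam table) were left out, and for repeated symbols the row with the highest mean was kept. Each comparison was fitted over its own table on log2(TPM + 1) in R 4.3.3, using limma 3.58.1 with its trend and robust options, two-sided, for genes that reached 1 TPM in at least the number of libraries of the smaller group, with Benjamini-Hochberg adjustment over all genes. A gene was called at an adjusted p below 0.05. The fit was tested on simulated data: of 200 changed genes, it called 0% and 21% (knockdown) and 42% and 87% (indisulam) of those changed by 1 and by 2 on the log2 scale. Mitochondrial genes held 16.9% to 21.0% of TPM in the knockdown table and 10.2% to 12.9% in the indisulam table.

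The members and the 13 gene lists were chosen with earlier results of these data known; 1 gene of the paraspeckle list is not reported here. Named genes are the 10 RNAs, RBM39, up to 3 called genes per list, direction and comparison by adjusted p, and the 3 genes most correlated with MALAT1, NEAT1 and MIR210HG; the others (HIF1A, SLC2A1, NONO, SFPQ, MYCN, SNORD22, the overlapping genes, and HNRNPA1 with knockdown) were named after their values were seen. Alternatives covered the pseudocount, the filter, scaling, the limma options, the replicate block and leaving out each library. Same-numbered libraries did not deviate together (r = -0.139 in the knockdown, 0.138, -0.146 and -0.0241 with indisulam), so the numbers were not used as pairs. Sequences come from RefSeq tables, in which 8 of the 10 RNAs had a promoter entry.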

Additional observations from a re-analysis of the deposited data

How the results depend on the processing

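Of the 7 tested RNAs, the number called with knockdown was 0 and became 1 under quantile normalization (GAS5); leaving out each library gave 0 to 0. With indisulam it was 4 and became 2 with no filter on low values and 2 with the replicate block, and leaving out each library gave 2 to 6; GAS5 and ZFAS1 stayed called in each of these fits. The sign turned in the knockdown for SNHG1 under quantile normalization (0.085) and without shRBM39 replicate 2 (0.228; range when 1 library was left out -0.41 to 0.228), for MIR17HG without SCR replicate 2 (0.427) and without shRBM39 replicate 2 (0.456; range -0.58 to 0.456), and for DANCR without shRBM39 replicate 1 (-0.0402; range -0.0402 to 0.34). These are log2 differences, none past the threshold, and the cause was not tested. No sign turned with indisulam.

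Over all genes, 1470 were called with knockdown, against 299 with the replicate block (SNHG19 alone of the list genes called stayed called), 0 with no filter and 0 to 572 when 1 library was left out (0 without SCR replicate 1, SCR replicate 2 or shRBM39 replicate 2, and 572 without shRBM39 replicate 1). With indisulam 4019 were called, against 3174 with the block, 2933 with no filter and 1849 to 9343 when 1 library was left out. The knockdown's numbers 1 and 2 were crossed in an alternative added after seeing the data, and 779 genes were then called. Alternatives planned for H929 and for the RBM39 immunoprecipitation were not run, since none of these RNAs was found there by symbol or older name. Depth is unknown in TPM, so the counting error of low levels, such as those of MIR17HG and LINC02008, could not be computed.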

Other observations

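LINC02008 was the 1 gene of 57351 with at least 5 TPM in both SCR libraries and at most 0.2 TPM in the other 8 MM1S libraries. No gene had the reverse pattern, at least 5 TPM in both shRBM39 libraries and at most 0.2 TPM in the other 8. This search was chosen after the values of LINC02008 were seen, and no test bears on it.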
